A study of Mus musculus with 24 samples.

Results

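The probes for Cyp3a11 and Cyp3a41a were the pair with the highest log2 ratio after PCN in wild type mouse liver, and they are described here across 4 genotypes. They are 2 of the 284 mouse probes on the array, which holds 320 probe IDs in all, and both were among the 236 mouse probes bright enough to be tested. They were chosen by the mean log2 ratio in wild type livers, so that this value, and every comparison that uses the wild type arrays' mean, is a description without a test. The array's annotation assigns probe ST_Mm_049 to Cyp3a11 (Entrez Gene 13112) and probe ST_Mm_052 to Cyp3a41a (Entrez Gene 53973).

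The mice were C57BL/6J males, 9 to 12 weeks of age. They were wild type, without the constitutive androstane receptor (CAR-/-), without the pregnane X receptor (PXR-/-), or without either receptor (CAR/PXR-/-). The mice had received PCN at 40 mg/kg into the peritoneum, in 5% DMSO in corn oil, or that vehicle alone, and the livers were taken after 12 h. Each genotype had 6 two-colour Steroltalk V2 arrays, 24 in all. On each, RNA of PCN-treated liver carried Cy5 and a pool of vehicle livers of the same genotype carried Cy3, and no array had the dyes swapped. The log2 ratio of Cy5 over Cy3 is therefore above 0 where the level was higher after PCN. Whether the 6 arrays of a genotype came from 6 animals or from pooled RNA is not clear from the labels, so p-values measure only the spread between arrays, which may be technical. The labels name the Cy3 RNA a pool of its genotype on every array, and they also mention pooled RNA of 6 replicates without naming a channel. The SD over arrays may therefore leave out variation among animals in either channel, and variation among vehicle-treated animals is taken to enter no test. A dye effect specific to a probe is part of every ratio within a genotype.

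Cytochrome P450 enzymes of the CYP3A subfamily oxidise steroids, bile acids and a wide range of drugs in the liver. PCN (pregnenolone 16α-carbonitrile) is a synthetic steroid that activates rodent PXR. PXR and CAR are nuclear receptors that bind DNA together with the retinoid X receptor (RXR) at paired copies of a hexamer and switch on genes of drug metabolism. Cyp3a11 is the main PCN-inducible CYP3A enzyme of mouse liver, and Cyp3a41 is known in mice as a form found mainly in females.

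In the GRCm38.p6 annotation of RefSeq, both genes lie on the minus strand of chromosome 5, Cyp3a11 at 145854607 to 145879854 and Cyp3a41a at 145694049 to 145720136. They are 134470 bases apart in a cluster of 8 protein-coding Cyp3a genes and 3 pseudogenes, and Cyp3a44 is the 1 protein-coding gene between them. The 250 bases before each gene's start are shown because the members rose together in wild type livers and because PXR and CAR act through hexamers in promoters and enhancers. They run 5′ to 3′ on the gene's strand, and capitals mark the hexamers AGGTCA and AGTTCA, found on either strand (TGAACT is AGTTCA on the other strand). The windows are chr5:145879855-145880104 for Cyp3a11 and chr5:145720137-145720386 for Cyp3a41a.
Cyp3a11: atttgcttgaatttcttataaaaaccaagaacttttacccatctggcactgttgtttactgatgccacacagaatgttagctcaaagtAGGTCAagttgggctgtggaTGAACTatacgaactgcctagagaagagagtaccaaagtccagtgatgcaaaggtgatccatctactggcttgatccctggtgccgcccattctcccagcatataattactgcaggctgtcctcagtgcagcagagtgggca
Cyp3a41a: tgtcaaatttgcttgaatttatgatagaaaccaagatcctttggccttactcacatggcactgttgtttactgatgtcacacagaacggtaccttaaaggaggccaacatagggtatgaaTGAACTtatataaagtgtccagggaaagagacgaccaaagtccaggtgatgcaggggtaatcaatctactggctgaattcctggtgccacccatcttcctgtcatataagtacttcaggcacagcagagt
Cyp3a11 held 1 AGGTCA, whose first base lay 162 bases before the start, and 1 AGTTCA, from 142 bases before it. Cyp3a41a held 1 AGTTCA, from 130 bases before its start. Of the 32851 RefSeq promoter windows of this length, 4607 held AGGTCA and 3891 held AGTTCA, and 24.2% held either. Direct repeats with 3 or 4 bases between (AGGTCANNNAGGTCA and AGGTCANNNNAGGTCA) and everted repeats with 6 between (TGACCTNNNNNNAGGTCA) were searched with every mix of the hexamers. They were in 0.0122%, 0.0244% and 0.00913% of all windows and in neither member's window. The search took exact letters with no mismatch, so a repeat with other letters in a hexamer was not looked for. The members' windows were identical at 190 of 235 aligned bases (80.9%). Cyp3a41a and its neighbour Cyp3a41b were identical at 249 of 250 bases, and Cyp3a41a and Cyp3a44 at 236 of 250. The probe sequences were not used here, so RNA of other Cyp3a genes that binds the same probe cannot be told apart from that of the gene named, and each value below is that of a probe.

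Each member had 3 spots per array, 72 in all, and was above background on 24 of 24 arrays. Foreground medians of Cyp3a11 spots ran from 918 to 58062 in Cy5 and from 1216 to 16034 in Cy3, and those of Cyp3a41a from 1253 to 54880 and from 1408 to 13534. One Cyp3a11 spot was flagged, and 1 other had 3% of its pixels saturated. The spots of an array had a median SD of 0.077 in the log2 ratio for Cyp3a11 and 0.074 for Cyp3a41a, with a widest range of 1.41 and 1.15 on 1 array each, both in CAR-deficient livers. Over the arrays, the median foreground of all spots was 109 to 891 in Cy5 and 175 to 1042 in Cy3, and 158 to 243 mouse probes were above background. Precision is limited by the number of arrays. The probe for PXR itself (Nr1i2) had a vehicle-pool level of 7.49 ± 0.22 (SD, n = 6) in wild type, 7.83 ± 0.17 without PXR and 8.20 ± 0.23 without either receptor, on the log2 scale. The probe for CAR (Nr1i3) had 7.94 ± 0.14 in wild type, 7.59 ± 0.14 in CAR-deficient and 7.69 ± 0.16 in CAR/PXR-deficient livers. Whether these probes lie in the deleted parts is not given in the sources used here, so they check nothing, and the genotypes are those of the labels. Of the hepatocyte markers, Apoa1, Cyp2e1 and Cyp7a1 had probes named for them, each above background on all 24 arrays. No probe was named for a marker of leukocytes, stellate cells, endothelium or cholangiocytes. The annotation lists no gene for 137 of the 284 mouse probes, so a marker may have a probe that is not named.

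In wild type livers the log2 ratio of Cyp3a11 was 2.61 on the lowest array, 2.90 at the median and 3.35 on the highest, with a mean of 2.94 ± 0.32 (SD, n = 6), or 7.68-fold. That of Cyp3a41a was 2.58, 2.88 and 2.99, with a mean of 2.85 ± 0.15 (SD, n = 6), or 7.23-fold. Every array was above 0 for both probes. In bulk liver a change in RNA per cell and a change in the number of cells that hold it cannot be told apart. The members were ranks 1 and 2 by this value, which is how they were chosen. Rank 3, a probe for which the annotation lists no gene, had 1.73 ± 0.23, and Cyp3a13 and Mbtps1 followed with 1.23 ± 0.16 and 1.09 ± 0.24. Of the 236 tested probes, 2.12% (5 probes) had a mean above a 2-fold rise in wild type livers, and the 5 are those named. The median of all tested probes was 0.00.

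**Figure D1:**
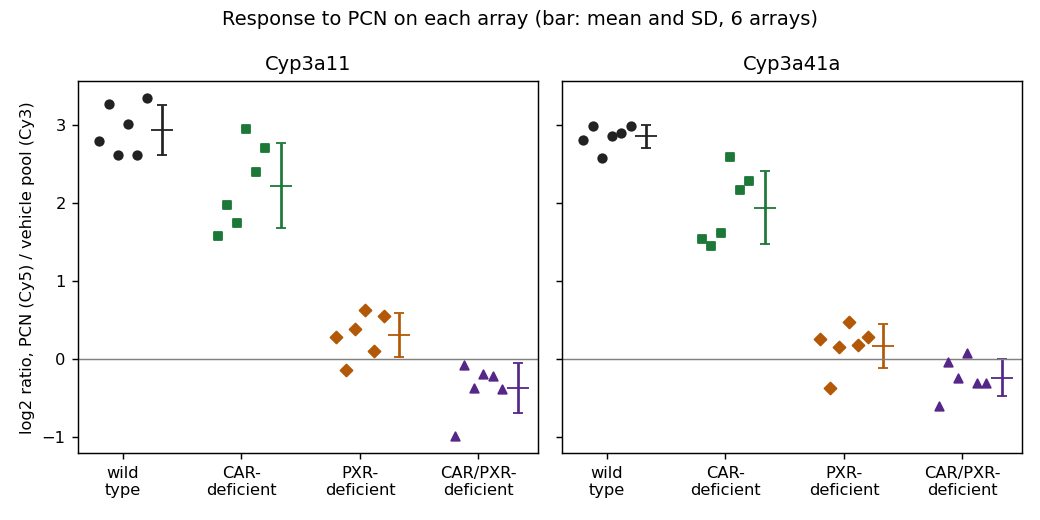
Log2 ratio of PCN-treated RNA (Cy5) over the vehicle pool (Cy3) on each of 24 arrays, for Cyp3a11 (left) and Cyp3a41a (right), by genotype. Points are arrays in order of replicate number, and the bar beside them is the mean with SD (n = 6). Wild type and CAR-deficient arrays lie between 1.45 and 3.35 for both probes, and all PXR-deficient and CAR/PXR-deficient arrays lie between -0.99 and 0.62.

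In CAR-deficient livers both probes still rose after PCN on 6 of 6 arrays. The log2 ratio of Cyp3a11 was 1.58 on the lowest array, 2.18 at the median and 2.95 on the highest. Its mean was 2.23 ± 0.55 (SD, n = 6), a 4.68-fold rise (95% interval of the limma fit 1.93 to 2.52, limma adjusted p = 2.73e-12). That of Cyp3a41a was 1.45, 1.89 and 2.59, with a mean of 1.94 ± 0.47 (SD, n = 6), a 3.84-fold rise (95% interval 1.70 to 2.18, limma adjusted p = 8.36e-13). Among all tested probes 6.78% rose in this genotype, and the members again had ranks 1 and 2. The arrays could be split into a lower and a higher set for both probes, a split seen only after the fact. Replicates 1, 2 and 3 had 1.58, 1.97 and 1.74 for Cyp3a11, and replicates 4, 5 and 6 had 2.95, 2.39 and 2.71. For Cyp3a41a the same arrays had 1.53, 1.45 and 1.61 against 2.59, 2.17 and 2.29. Spots of a single array could range more widely than the step between these sets. The range was 1.41 for Cyp3a11 on replicate 1 and 1.15 for Cyp3a41a on replicate 2. Limma's array weights, which score how well an array follows its group over all probes, were 0.27, 0.63 and 0.73 on the lower arrays and 1.58, 1.09 and 1.74 on the others, and the part of array quality in the difference was not tested. The wild type mean exceeded the CAR-deficient mean by 0.72 for Cyp3a11 and by 0.91 for Cyp3a41a, and the array ranges of these genotypes overlapped for both probes. For Cyp3a41a the overlap was small, with the lowest wild type array at 2.58 and the highest CAR-deficient array at 2.59.

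In PXR-deficient livers neither probe passed the test. The log2 ratio of Cyp3a11 was -0.14 on the lowest array, 0.34 at the median and 0.62 on the highest, with 5 of 6 arrays above 0. Its mean was 0.30 ± 0.28 (SD, n = 6), with a 95% interval of 0.01 to 0.60 before adjustment (limma adjusted p = 0.0964). That of Cyp3a41a was -0.37, 0.22 and 0.47, also with 5 of 6 arrays above 0. Its mean was 0.16 ± 0.28 (SD, n = 6), with an interval of -0.08 to 0.40 (limma adjusted p = 0.282). In this genotype 19.5% of all tested probes rose and 19.5% fell, with a median of -0.03. Replicate 2 was the lowest array for both probes and had an array weight of 0.15, the lowest of the 24. The highest PXR-deficient arrays, 0.62 and 0.47, lay below the lowest wild type arrays, 2.61 and 2.58, which is a description without a test. These calls depended on the processing: with array weights in the fit, the limma adjusted p was 0.00958 for Cyp3a11 (mean 0.39) and 0.0234 for Cyp3a41a (mean 0.26), so that both counted as rises. They also did under control-probe centring (0.65 and 0.54, limma adjusted p = 0.0327 and 0.0323) and with the deposited value table (0.48 and 0.40, limma adjusted p = 0.0318 and 0.0420).

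In CAR/PXR-deficient livers both means were below 0 and neither passed the test. The log2 ratio of Cyp3a11 was -0.99 on the lowest array, -0.29 at the median and -0.08 on the highest, so that 6 of 6 arrays were below 0. Its mean was -0.37 ± 0.33 (SD, n = 6), with a 95% interval of -0.67 to -0.08 before adjustment (limma adjusted p = 0.0596). That of Cyp3a41a was -0.60, -0.27 and 0.07, with 5 of 6 arrays below 0. Its mean was -0.24 ± 0.24 (SD, n = 6), with an interval of -0.48 to 0.00 (limma adjusted p = 0.148). The 1 array above 0 was replicate 4, where 1 of the 3 Cyp3a41a spots was dim (2188 in Cy5 and 1554 in Cy3) with a log2 ratio of 0.30, while the others had -0.02 and -0.06. Among all tested probes 11.9% fell in this genotype and 10.6% rose, with a median of 0.04. For Cyp3a11 the call changed when CAR-deficient replicate 1, CAR-deficient replicate 4 or CAR/PXR-deficient replicate 2 was left out (limma adjusted p = 0.0447, 0.0407 and 0.0485), with means of -0.37, -0.37 and -0.43. With the deposited value table both counted as falls, at -0.58 and -0.44 (limma adjusted p = 0.0116 and 0.0288). Cyp3a11 also did with array weights (-0.31, limma adjusted p = 0.0278) and with each genotype fitted alone (limma adjusted p = 0.0353). Without CAR/PXR-deficient replicate 1, the lowest array, its mean was -0.25 (limma adjusted p = 0.265).

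The contrasts among the 3 receptor-deficient genotypes were not used to choose the probes and were tested in the same limma fit. CAR-deficient livers had the higher Cyp3a11 response, by 1.92 on the log2 scale against PXR-deficient livers (standard error 0.20, limma adjusted p = 1.37e-07). For Cyp3a41a that difference was 1.78 (95% interval 1.44 to 2.12, limma adjusted p = 2.05e-08). For both probes every CAR-deficient array lay above every PXR-deficient array, by at least 0.96 and 0.97. Over all tested probes 18.2% were higher in this contrast and 14.4% were lower. Against CAR/PXR-deficient livers the response in CAR-deficient livers was higher by 2.60 for Cyp3a11 (95% interval 2.18 to 3.02, limma adjusted p = 9.26e-11) and by 2.18 for Cyp3a41a (95% interval 1.84 to 2.52, limma adjusted p = 5.66e-11), again without overlap. In that contrast 11.0% of all tested probes were higher and 11.4% were lower. How many of all tested probes had arrays without overlap was not counted in either contrast.

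PXR-deficient and CAR/PXR-deficient livers were closer to each other, and their arrays overlapped for both probes. PXR-deficient livers had the higher Cyp3a11 response, by 0.68 (95% interval 0.26 to 1.10, limma adjusted p = 0.00997). For Cyp3a41a the difference of 0.40 did not pass (95% interval 0.06 to 0.74, limma adjusted p = 0.0559), and whether the probes differ in this contrast was not tested. Over all tested probes 17.4% were higher in this contrast and 24.2% were lower. The Cyp3a11 call was lost under median centring without loess, where the difference was 0.74 (limma adjusted p = 0.0584). With 1 array left out in turn, the Cyp3a41a difference ran from 0.33 to 0.51 (limma adjusted p from 0.0162 to 0.132). It passed for 6 of the 24 arrays, most clearly without PXR-deficient replicate 2, where it was 0.51 (limma adjusted p = 0.0162). CAR-deficient replicates 1, 2 and 4 are among the 6, and leaving out any of these changed only the p. Wild type means exceeded those of PXR-deficient livers by 2.64 and 2.69 and those of CAR/PXR-deficient livers by 3.31 and 3.09, for Cyp3a11 and Cyp3a41a. Arrays did not overlap, which is a description only, since the wild type arrays chose the probes. The share of all tested probes without such overlap was not counted. By response the order was wild type, CAR-deficient, PXR-deficient and CAR/PXR-deficient for both probes, and only the CAR-deficient and PXR-deficient neighbours in that order had no overlapping arrays.

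**Figure D2:**
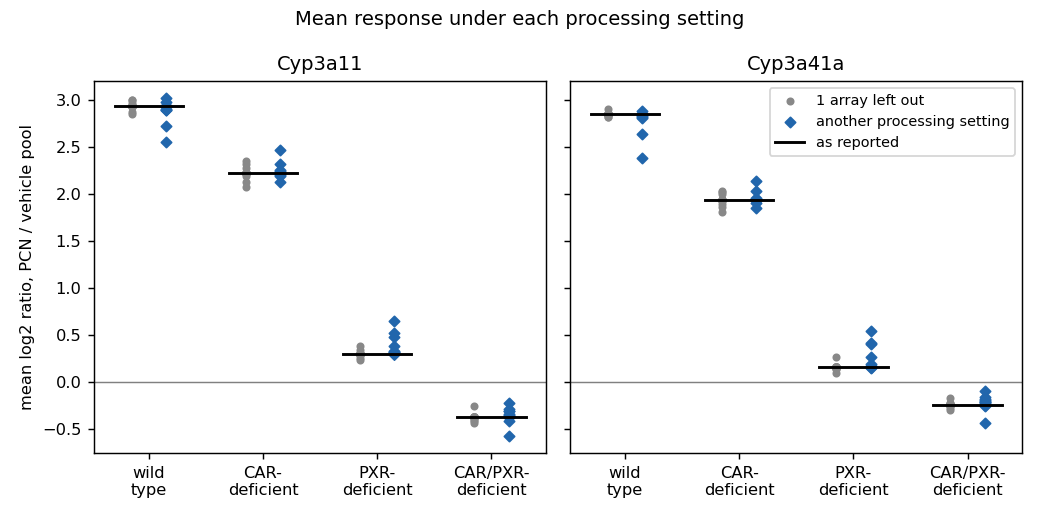
Mean log2 ratio of each probe in each genotype under every processing alternative. The black line is the reported mean, grey points leave out 1 of the 24 arrays each, and blue diamonds change another setting. CAR-deficient means stayed between 2.08 and 2.47 for Cyp3a11, PXR-deficient means between 0.24 and 0.65, and CAR/PXR-deficient means between -0.58 and -0.22.

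The levels in each channel differed between genotypes as well. After normalization between arrays, the PCN-channel (Cy5) level of Cyp3a11 on the log2 intensity scale was 14.18 ± 0.60 in wild type livers, 13.72 ± 0.66 without CAR, 12.21 ± 0.38 without PXR and 12.85 ± 0.28 without either (SD, n = 6 each). Its vehicle-pool (Cy3) level was 11.24 ± 0.34, 11.49 ± 0.27, 11.90 ± 0.45 and 13.22 ± 0.32 in the same order. The vehicle pool of the CAR/PXR-deficient livers thus read 1.98 above that of the wild type, and its lowest array (12.83) was above the highest array of each other genotype (11.61, 11.86 and 12.46). The Cyp3a11 vehicle-pool ranges of the other genotypes overlapped. These steps are those of normalized levels. Without normalization, the Cy3 foreground medians of Cyp3a11 spots overlapped among all genotypes. They ran from 1621 to 10557 in wild type, 1595 to 5400 without CAR, 1216 to 6475 without PXR and 3776 to 16034 without either. How many of all tested probes had Cy3 levels apart in this way was not counted.

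For Cyp3a41a the Cy5 level was 14.29 ± 0.36 in wild type livers, 13.37 ± 0.47 without CAR, 12.69 ± 0.15 without PXR and 12.81 ± 0.27 without either. Its Cy3 level was 11.44 ± 0.36, 11.44 ± 0.28, 12.53 ± 0.31 and 13.05 ± 0.36. The normalized Cy3 levels of PXR-deficient arrays (12.09 to 12.93) lay above all of those of wild type (11.05 to 11.98) and CAR-deficient livers (11.14 to 11.94). They overlapped those of CAR/PXR-deficient livers (12.41 to 13.45). Without normalization, Cy3 foreground medians of its spots overlapped, at 1812 to 9691 without PXR, 2185 to 8780 in wild type and 1408 to 7263 without CAR. The share of all tested probes with such a separation was not counted. If the Cy3 RNA of a genotype was the same pool on its 6 arrays, as its label reads, the SD of these levels is technical, and no test was made between pools. The hepatocyte marker Cyp2e1, another drug-metabolising P450, also had its highest Cy3 level in CAR/PXR-deficient livers, with 12.10 ± 0.28, 12.19 ± 0.37, 12.50 ± 0.29 and 13.27 ± 0.17 in the same order of genotypes. Apoa1, a lipoprotein gene of hepatocytes, had 12.73 ± 0.40, 12.94 ± 0.41, 13.19 ± 0.21 and 13.13 ± 0.17, and Cyp7a1, the rate-limiting enzyme of bile acid synthesis, had 7.68 ± 0.23, 7.71 ± 0.31, 7.95 ± 0.14 and 7.97 ± 0.08. Whether hepatocyte content or hybridisation has a part in the members' Cy3 levels was not tested.

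**Figure D3:**
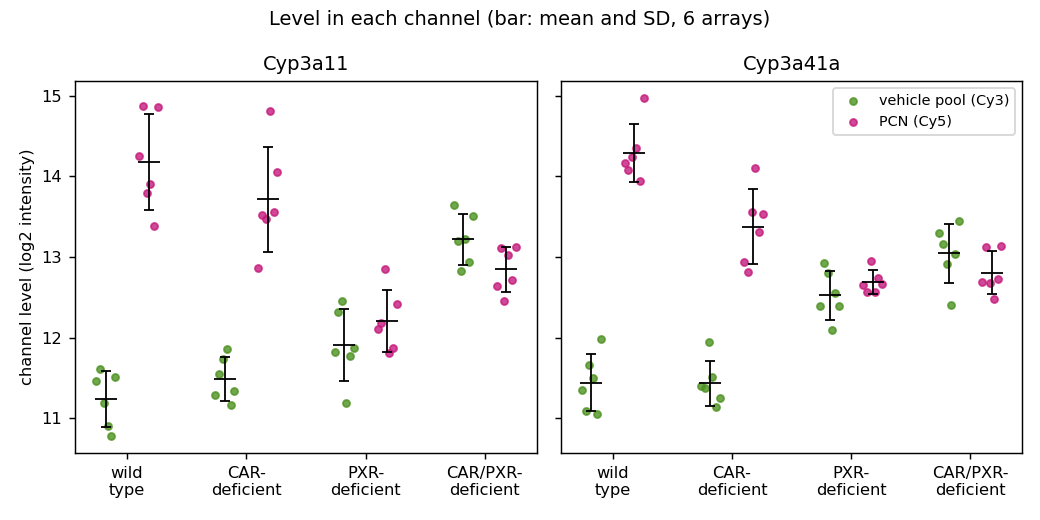
Level of each probe in the Cy3 channel (vehicle pool, green) and the Cy5 channel (PCN, magenta) on each array, in log2 intensity after normalization between arrays. Black bars are means with SD (n = 6). The Cy5 points lie well above the Cy3 points in wild type and CAR-deficient livers, while both channels overlap in PXR-deficient and CAR/PXR-deficient livers, where Cy3 means are 11.90 to 13.22.

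Within each genotype the ratios of the probes were compared array by array. Pearson's r of the log2 ratios over 6 arrays was 0.75 in wild type livers, 0.95 without CAR, 0.88 without PXR and 0.86 without either receptor. Adjusted over the 4 genotypes, the 2-sided exact permutation p of r was 0.0653, 0.0306, 0.0306 and 0.0315, so that wild type did not pass. Spearman's rho was 0.83, 0.83, 0.83 and 0.89, with an exact permutation p adjusted to 0.0583 in each, which did not pass. Without the 2 arrays farthest from the median of Cyp3a11, r over the 4 that stayed was 0.41, 0.91, 0.46 and 0.59, lower in each genotype. Leaving them out narrows the range of ratios, which tends to lower r, and 4 arrays are few. Whether the relation rests on those arrays thus cannot be told. In CAR-deficient livers the relation follows the lower and the higher arrays described above, too few in each for a value of their own. Both probes lie on the same arrays and share each array's hybridisation and normalization. The median r with the other tested probes was between -0.08 and 0.05 in the 4 genotypes for Cyp3a11. For Cyp3a41a it was between -0.14 and 0.05. Loess centres each array on the mouse spots, so a median near 0 cannot measure what the probes share through the array. Among the other tested probes, 5, 0, 5 and 12 had an r with Cyp3a11 at least as high as Cyp3a41a did. For Cyp3a41a in PXR-deficient livers that number was 40, or 17.1%.

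**Figure D4:**
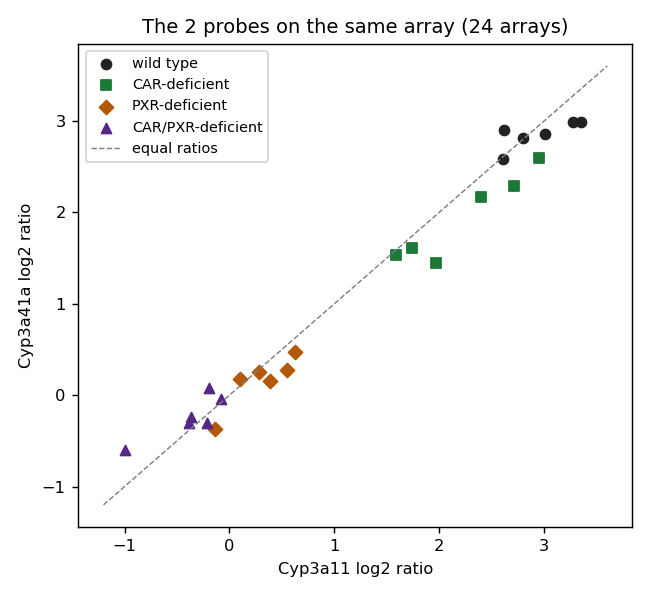
Log2 ratio of Cyp3a11 (horizontal) against that of Cyp3a41a (vertical) on each of the 24 arrays, with symbols for the genotypes. The dashed line marks equal ratios. The arrays fall near the line, with wild type and CAR-deficient arrays toward the upper right and the others near 0 or below, and the 6 CAR-deficient arrays lie below it, with Cyp3a11 higher by 0.05 to 0.52.

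The sizes of the 2 responses were compared on the same array. Cyp3a11 minus Cyp3a41a averaged 0.09 ± 0.23 (SD, n = 6) in wild type livers, with Cyp3a11 higher on 4 of 6 arrays. In CAR-deficient livers it averaged 0.29 ± 0.18, and Cyp3a11 was higher on 6 of 6 arrays. The exact sign-flip permutation test (2-sided) gave p = 0.03125 there, the smallest that 6 arrays allow, and 0.09375 adjusted over the 3 receptor-deficient genotypes. In PXR-deficient livers the difference was 0.14 ± 0.14 with Cyp3a11 higher on 5 of 6 arrays (exact permutation p = 0.09375, adjusted 0.125). In CAR/PXR-deficient livers it was -0.13 ± 0.17 with Cyp3a11 higher on 1 of 6 arrays (exact permutation p = 0.125, adjusted 0.125). None passed after adjustment. With spot medians in place of means, or without flagged spots, the adjusted exact permutation p was 0.046875 in each of CAR-deficient and PXR-deficient livers.

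By the rule for likeness, the highest Pearson's r over the 24 arrays, the probes most like Cyp3a11 besides its partner (r = 0.99) were the probe without a listed gene (0.95), Mbtps1 (0.93) and Cyp3a13 (0.90). For Cyp3a41a they were Mbtps1 (0.94), Cyp3a13 (0.93) and the probe without a listed gene (0.93). The next were Alas1 with 0.75 and Apoa1 with 0.71. These values describe 24 arrays of 4 genotypes and include the difference between genotypes. Cyp3a13, a CYP3A gene outside the cluster on chromosome 5 (137892933 to 137925610), had mean log2 ratios of 1.23, 0.79, -0.01 and 0.25 in wild type, CAR-deficient, PXR-deficient and CAR/PXR-deficient livers. Mbtps1, which encodes the site-1 protease that activates sterol-regulated transcription factors, had 1.09, 0.70, 0.09 and 0.01. Its probe was dim, with mean Cy3 levels of 7.11 to 7.41 over the genotypes, beside 11.24 to 13.22 for Cyp3a11. Its wild type mean ran from 0.85 to 1.36 over the processing alternatives. The probe without a listed gene had 1.73, 1.47, 0.50 and -0.24.

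**Figure D5:**
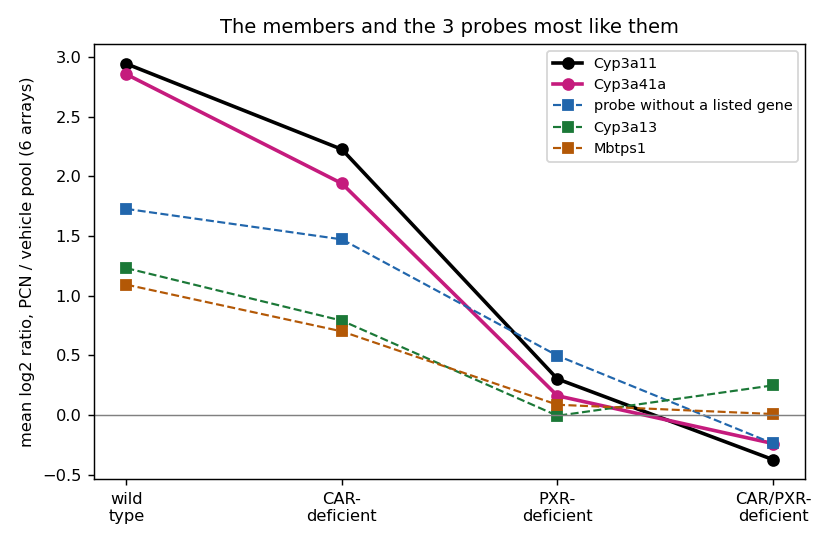
Mean log2 ratio (PCN over vehicle pool, 6 arrays each) in the 4 genotypes for Cyp3a11 and Cyp3a41a (solid) and the 3 probes most like them over the 24 arrays (dashed). All 5 lines start highest in wild type, at 1.09 to 2.94, and are at or below 0.25 in CAR/PXR-deficient livers.

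Other known targets of PXR and CAR were read as a list. Of 23 listed genes, 9 had probes named for them in the annotation, 7 of them besides the members. Of those, 6 were bright enough to test, and Cyp2b9 was not. A listed gene may also be among the probes without a listed gene, which these counts leave out. In wild type livers 3 of the 6 rose, against 21.2% of all tested probes, and 0 fell (16.5% of all). They were Cyp3a13 (1.23, limma adjusted p = 6.73e-13), the organic anion transporter Slco1a4 (0.75, limma adjusted p = 0.00058) and Alas1, the first enzyme of haem synthesis (0.36, limma adjusted p = 0.00249). Abcb1a, Abcc2 and Abcc3, which encode export pumps, had -0.22, 0.10 and 0.03 and did not pass. Abcb1a passed as a fall under control-probe centring (-0.32, limma adjusted p = 0.00213), with array weights (limma adjusted p = 0.0236), with each genotype fitted alone (limma adjusted p = 0.0343) and without PXR-deficient replicate 2 (limma adjusted p = 0.0105). Abcc2 passed as a rise with the deposited value table (0.23, limma adjusted p = 0.0255) and with spot medians (limma adjusted p = 0.0294). In CAR-deficient livers Cyp3a13 (0.79, limma adjusted p = 9.40e-09) and Alas1 (0.42, limma adjusted p = 0.000917) rose. Slco1a4 (0.32) did not pass, but did without CAR-deficient replicate 1 (0.53, limma adjusted p = 0.00819) and with array weights (0.50, limma adjusted p = 0.00317). Abcb1a fell by 0.41 there (limma adjusted p = 0.00956; 10.2% of all tested probes fell). Centring on the control probes ended the calls of Slco1a4 in wild type livers and of Alas1 in both genotypes (limma adjusted p = 0.0992, 0.101 and 0.0989), and median centring that of Abcb1a in CAR-deficient livers (limma adjusted p = 0.144).

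In PXR-deficient livers Abcc2 rose by 0.40 (limma adjusted p = 2.90e-06) and Abcb1a fell by 0.61 (limma adjusted p = 0.000147), while Cyp3a13 and Slco1a4 had -0.01 and -0.01. The Slco1a4 probe was dim, above background on 4 of 6 PXR-deficient and 3 of 6 CAR/PXR-deficient arrays. In CAR/PXR-deficient livers Cyp3a13 rose by 0.25 (limma adjusted p = 0.0162), opposite in sign to the means of both members. That rise was lost without CAR/PXR-deficient replicate 2 or 4 (limma adjusted p = 0.0513 and 0.0652) and with spot medians (limma adjusted p = 0.0563). It was also lost with the deposited value table (0.14, limma adjusted p = 0.346), under control-probe centring (limma adjusted p = 0.141) and with the default background fit kept on replicate 6 (limma adjusted p = 0.0722). Abcc2 fell by 0.34 (limma adjusted p = 1.36e-05) and Abcc3 fell by 0.39 (limma adjusted p = 2.97e-06). Without 1 array, Abcc3 passed as a rise of 0.15 in PXR-deficient livers (without replicate 6, limma adjusted p = 0.0397) and Alas1 as a fall, at -0.25, in CAR/PXR-deficient livers (without replicate 2, limma adjusted p = 0.0264). The median of the 6 was 0.23, 0.22, 0.05 and -0.15 in wild type, CAR-deficient, PXR-deficient and CAR/PXR-deficient livers, beside 0.00, -0.01, -0.03 and 0.04 for all tested probes.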

How the data were processed

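The deposited scanner tables list every spot. Their intensity values (foreground and background of both channels) carry no normalization, per the file headers. Per the file headers the tables also give the percent of pixels above background by 2 SD, the percent saturated, and a flag. The deposited value table holds the authors' log2 ratios. They correlated with the scanner ratios at r = 0.60 to 0.99 and ran the same way, with array medians of -0.33 to 0.16, and how they were normalized or centred is not known. They served as an alternative. The scanner software is not given in the sources used here.

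Foreground medians were corrected by limma's normexp with an offset of 50 (limma 3.58.1, R 4.3.3). In 1 of 48 channels, Cy5 of CAR/PXR-deficient replicate 6, the default fit put the background mean (3230) above the median signal (436.5), and maximum likelihood was used there instead. Ratios were normalized by global loess within arrays (span 0.3, 4 iterations, weight on mouse spots without a flag), and a probe's value is the mean of its 3 spots. Tested probes were seen (over 50% of pixels above background in at least 50% of spots, in either channel) on at least 50% of the arrays of a genotype, in all 236, leaving out 48. Levels in each channel follow Aquantile normalization. All 24 arrays entered a single limma model (lmFit, eBayes) with 1 coefficient for each genotype and Benjamini-Hochberg adjustment over 236 probes at 0.05. A limma adjusted p given for an alternative is from the limma fit of that alternative, and every other is from that model. The fit was checked on simulated data. Pearson, Spearman and sign-flip p-values came from exact enumeration.

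GEO's platform annotation, which can be old, names 147 of the 284 mouse probes, none with several genes, and lists no gene for 137. The accession of both members matched RefSeq. Promoter windows were aligned with Biopython 1.88. Besides the members, the text names the 3 probes most like each over the arrays, the next probe by wild type ratio, and listed PXR and CAR targets, receptors and cell type markers. The members and lists were chosen with earlier results of these data known. Samples were grouped by title. Alternatives covered background correction, pixel summary, normalization, spots, filter, weights, fit, replicate block and left-out arrays.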

Additional observations from a re-analysis of the deposited data

Results flagged for a closer look

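For Cyp3a11 in CAR/PXR-deficient livers, the log2 ratio of replicate 1 was -0.994, apart from the other 5 arrays, which lay between -0.38 and -0.08. Among 28 groups of 6 values looked at, chance alone singles out about 1 in 20.

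The response of Cyp3a11 differed between genotypes in the limma contrasts CAR-deficient minus PXR-deficient (1.92), CAR-deficient minus CAR/PXR-deficient (2.60) and PXR-deficient minus CAR/PXR-deficient (0.68). That of Cyp3a41a differed in the former pair of contrasts (1.78 and 2.18). For Cyp3a11 all 6 wild type arrays were above 0 and all 6 CAR/PXR-deficient arrays below 0, a difference in means of 3.31, which was not tested because the wild type arrays chose the probe.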

How the results depend on the processing

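Of 956 comparisons of a value with an alternative, 891 were labelled the same, 13 lost a call, 35 gained one, 17 moved and 0 reversed. The same means that a value kept its direction and side of the threshold or stayed within the spread. For a count of called probes it means a count within a set ratio of the reported one. The cause of these changes was not tested. Part of the 891 was fixed in advance, so their number overstates how steady the results are. Leaving out an array of another genotype leaves a genotype's mean, r and probe difference as they were and can change only a p. The limma calls of both probes in CAR-deficient livers, and those of CAR-deficient against the other receptor-deficient livers, held under every alternative run.

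The PXR-deficient means of Cyp3a11 and Cyp3a41a passed under control-probe centring (0.65 and 0.54), the deposited value table (0.48 and 0.40) and array weights (0.39 and 0.26), and that of Cyp3a11 with each genotype fitted alone (0.30). Control-probe centring moved the median of all tested probes to -0.20, -0.15, 0.07 and -0.11 in wild type, CAR-deficient, PXR-deficient and CAR/PXR-deficient livers (-0.10 in PXR-deficient livers without replicate 2, where it was 1.15). Relative to it, Cyp3a11 was at 2.93, 2.34, 0.58 and -0.17 and Cyp3a41a at 2.84, 2.06, 0.48 and -0.05. The CAR/PXR-deficient mean of Cyp3a11 passed with the value table (-0.58), array weights (-0.31), genotypes fitted alone and the replicate block (-0.37 each), and that of Cyp3a41a with the value table (-0.44). PXR-deficient minus CAR/PXR-deficient passed for Cyp3a41a under control-probe centring (0.70), the value table (0.84), array weights (0.44), the replicate block and genotypes fitted alone (0.40 each), and was lost for Cyp3a11 under median centring (0.74). The wild type means moved to 2.55 and 2.38 with the value table and, for Cyp3a41a, to 2.64 under control-probe centring. 

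The correlation of the probes in wild type livers passed with offset 10 (r = 0.79), median centring (0.98), control-probe centring (0.98) and the value table (0.89). It was lost with the value table in PXR-deficient livers (0.82). Without CAR/PXR-deficient arrays 5 and 6, whose Cy5 background is 0, r in that genotype was 0.95 beside 0.86. The arrays that stayed are too few for the adjusted exact permutation p to pass at any r, so the lost call there shows nothing. Cyp3a11 minus Cyp3a41a passed without flagged spots (0.29 without CAR, 0.17 without PXR) and with spot medians (0.31 and 0.16).

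Called probes numbered 89, 40, 92 and 53 in wild type, CAR-deficient, PXR-deficient and CAR/PXR-deficient livers. They became 42 and 56 in wild type and PXR-deficient livers under median centring, 29, 18, 42 and 32 under control-probe centring, and 38 and 60 in wild type and PXR-deficient livers with the value table. In PXR-deficient livers they were 58 with genotypes fitted alone. In CAR/PXR-deficient livers they were 88 with array weights, 34 without arrays 5 and 6, and 33 with the default background fit kept on replicate 6, an alternative chosen after seeing the data.

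With 1 array left out in turn, the means ran, in the same order of genotypes, over 2.86 to 3.01, 2.08 to 2.35, 0.24 to 0.39 and -0.43 to -0.25 for Cyp3a11 and 2.83 to 2.91, 1.81 to 2.04, 0.10 to 0.27 and -0.30 to -0.17 for Cyp3a41a. The 3 contrasts ran over 1.78 to 2.05, 2.45 to 2.73 and 0.55 to 0.76 for Cyp3a11 and 1.65 to 1.88, 2.05 to 2.28 and 0.33 to 0.51 for Cyp3a41a. The correlations ran over 0.68 to 0.95, 0.91 to 0.99, 0.72 to 0.95 and 0.66 to 0.93, the differences of the probes over 0.03 to 0.16, 0.24 to 0.33, 0.11 to 0.18 and -0.18 to -0.08, and the counts of called probes over 46 to 100, 33 to 52, 65 to 97 and 43 to 65. The wild type count was lowest without wild type replicate 1 (46) and was 55 without replicate 2. With 5 arrays, the correlation passed without replicate 5 in wild type livers and was lost without replicate 4, 5 or 6 in CAR-deficient, 2, 4 or 6 in PXR-deficient, and 1, 2, 3 or 6 in CAR/PXR-deficient livers.

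Same-numbered arrays of different genotypes showed no clear sign of pairing. Over 36 pairs, their deviations from the genotype means correlated at r = -0.52 to 0.29, with 8 above 0.1. Of 24 arrays, 2 correlated best with their own number. These correlations cannot show whether same-numbered arrays were handled together. The replicate block changed no call of the members other than those given. A block for slide or scan was not run, since no file gives either.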
